A study of Mus musculus with 27 samples.

Results

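Genes whose products sit on the inner lining of blood vessels or act on it, 9 in all, were described across 9 mouse tissues: the angiopoietin receptor gene Tek and its ligand genes Angpt1 and Angpt2, the adhesion genes Pecam1, Icam2 and Vcam1, the sialomucin genes Cd34 and Emcn, and the thrombomodulin gene Thbd. The probe sets were taken by gene symbol, as all mouse probe sets that the platform annotation assigns to these names. The 9 names were chosen with earlier results of these data known, so comparisons with all genes describe a chosen set. The choice took 10 of the 702 mouse probe sets on the array, out of 1813 probe sets of any kind, and covered 9 of the 573 mouse genes compared. Vcam1 had 2 probe sets and each of the others had 1.

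The samples were total RNA of lung, kidney, liver, brain, testis, lymph node, spleen, thymus and bone marrow from wild-type male C57BL/6 mice aged 6 to 8 weeks, with 3 arrays per tissue and 27 arrays in all. No tissue carried a transgene or a treatment, and each contrast sets a tissue against other tissues of the same kind of mouse. The platform was a 1-colour Affymetrix array designed around glycan-related and immune genes. Whether the 3 arrays of a tissue stand for separate animals is not labelled, so the p-values cover the spread between arrays and may leave out that between animals. Whole tissues were extracted, so a lower content of vessels and less transcript per endothelial cell cannot be told apart.

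Array medians over all probe sets lay between 221.5 and 243.7, and each of the 27 arrays had its closest match among arrays of the same tissue. The tissue names were set against marker genes. Both lung epithelium markers were called higher in lung, all 3 hepatocyte markers in liver, 3 of 4 neutrophil markers in bone marrow and 2 of 5 neural markers (Chga and Ugt8a) in brain. Ugt8a was also called higher in kidney, with a mean of 686 against 511 in brain, and kidney and testis had no marker list. The 839 human probe sets on the same arrays give a rough scale of cross-species signal, with a median intensity of 205.2 and a 95th percentile of 590.1. Mouse genes had a median of 296.2. Levels inside the human range may hold non-specific signal, and a fold with such a level on either side is a ratio of signals rather than of transcripts.

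Endothelial cells line every vessel, and their surface differs between vascular beds. Tek (also called Tie2) is a receptor tyrosine kinase of endothelial cells. Angpt1, made mainly by cells around the vessel, activates it and favours a quiescent wall, while Angpt2, stored and released by endothelial cells, acts on the same receptor and can block it. Pecam1 and Icam2 are immunoglobulin-family adhesion proteins found on endothelium in most tissues and also on leukocytes and platelets, and Vcam1 is an adhesion protein that cytokines induce on endothelium and that stromal cells and macrophages of lymphoid organs also carry. Cd34 and endomucin (Emcn) are heavily glycosylated sialomucins of endothelium, and Cd34 is also a marker of blood progenitor cells. Thrombomodulin (Thbd) binds thrombin on the vessel surface and turns it towards activation of protein C.

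Promoter sequence of the genes is shown for Cd34, Emcn and Tek, the 3 members matched in the promoter table, because ETS-family factors that bind the core GGAA are known regulators of endothelial genes. The sequences are the 250 bases upstream of the annotated start on the + strand, from RefSeq on build GRCm38.p6, at chr1:194938571-194938820 for Cd34, chr3:137340828-137341077 for Emcn and chr4:94739039-94739288 for Tek. Capitals mark AGGAA and its reverse complement TTCCT, and the 2 forms cannot overlap on the same bases here. This is narrower than the core. Other copies of GGAA or of its reverse complement TTCC, as in the Cd34 window, stay in lower case and were not counted.
Cd34: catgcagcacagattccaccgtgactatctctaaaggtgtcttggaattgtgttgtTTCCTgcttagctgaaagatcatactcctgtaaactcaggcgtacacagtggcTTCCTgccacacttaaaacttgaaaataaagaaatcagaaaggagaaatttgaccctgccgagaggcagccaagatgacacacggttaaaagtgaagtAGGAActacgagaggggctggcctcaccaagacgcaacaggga
Emcn: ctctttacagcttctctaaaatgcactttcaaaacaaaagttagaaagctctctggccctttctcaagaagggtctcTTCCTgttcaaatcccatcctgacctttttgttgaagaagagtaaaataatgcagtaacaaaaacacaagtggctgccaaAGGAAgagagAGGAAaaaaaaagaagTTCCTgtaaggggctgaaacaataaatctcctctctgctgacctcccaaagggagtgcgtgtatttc
Tek: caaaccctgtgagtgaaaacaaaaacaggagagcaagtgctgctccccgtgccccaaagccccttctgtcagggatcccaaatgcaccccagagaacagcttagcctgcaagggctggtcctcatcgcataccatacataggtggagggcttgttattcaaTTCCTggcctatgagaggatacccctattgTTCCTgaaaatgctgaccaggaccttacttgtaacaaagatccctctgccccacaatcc
There were 3 matches in the Cd34 window, 4 in the Emcn window and 2 in the Tek window. Among 32851 promoter windows of the same length, 60.3% held at least 1 match and the median was 1. At least as many matches as in Cd34 were found in 9.0% of windows, as many as in Emcn in 2.7% and as many as in Tek in 26.0%. A match describes the letters only and is not a binding site.

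Of the 9 genes, 8 varied among the 9 tissues in limma's moderated F test, that is, at an adjusted p under 0.05 and with the highest tissue mean at least 1 above the lowest on the log2 scale. Over all 573 genes the same test called 50.6%. The median member spanned 22.9-fold between its highest and lowest tissue, against 2.02-fold for the median mouse gene. Lung had the highest mean for 8 members, as it did for 14.1% of all genes. Vcam1 was the exception, with its highest level in spleen. Lung was not separated from kidney for Emcn, nor from spleen or kidney for Angpt2, at an adjusted p under 0.05 in limma tests of tissue pairs. Each tissue was then set against the mean of the other 8, where a call needed an adjusted p under 0.05 and a difference of at least 1 (2-fold). These contrasts share their arrays and are given side by side.

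**Figure D1:**
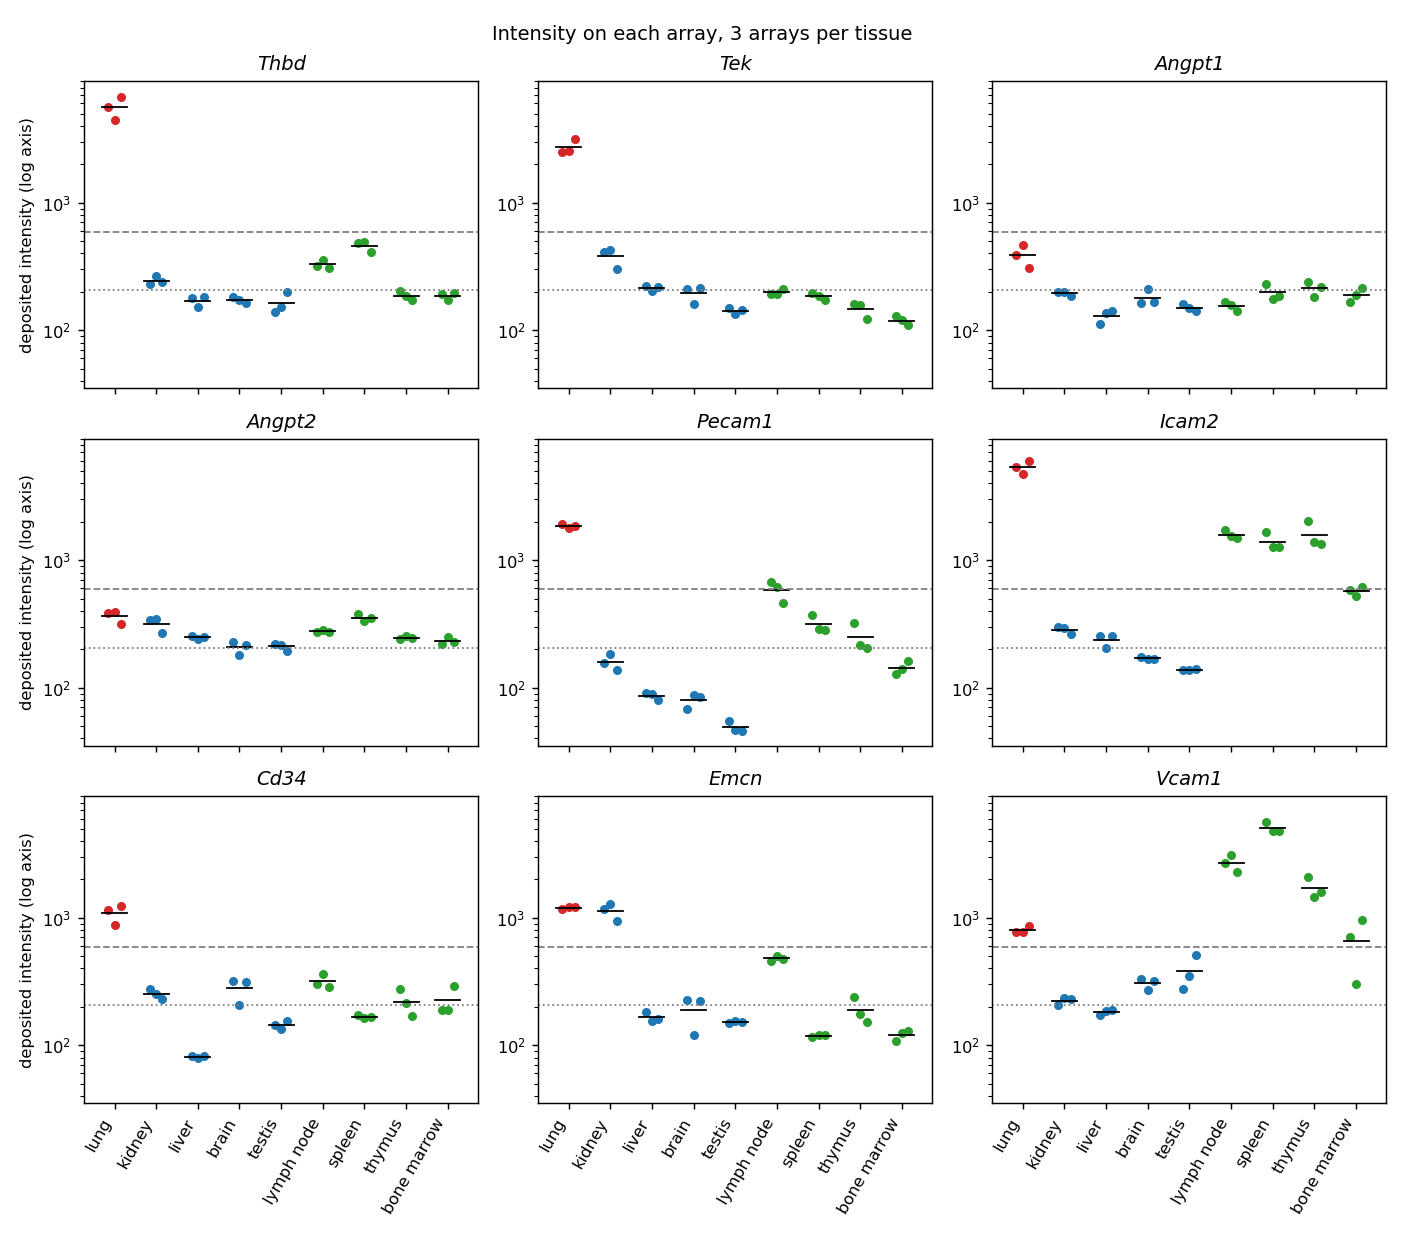
Deposited intensity of each gene on each array (points, log axis) in the 9 tissues, with the tissue mean as a black bar; lung is red, the other solid organs blue, and the lymphoid and blood-forming tissues green. The dotted line is the median of the human probe sets (205.2) and the dashed line their 95th percentile (590.1); the 3 lung arrays lie above all others for Thbd, Tek, Angpt1, Pecam1, Icam2 and Cd34, and the 3 spleen arrays do so for Vcam1.

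**Figure D2:**
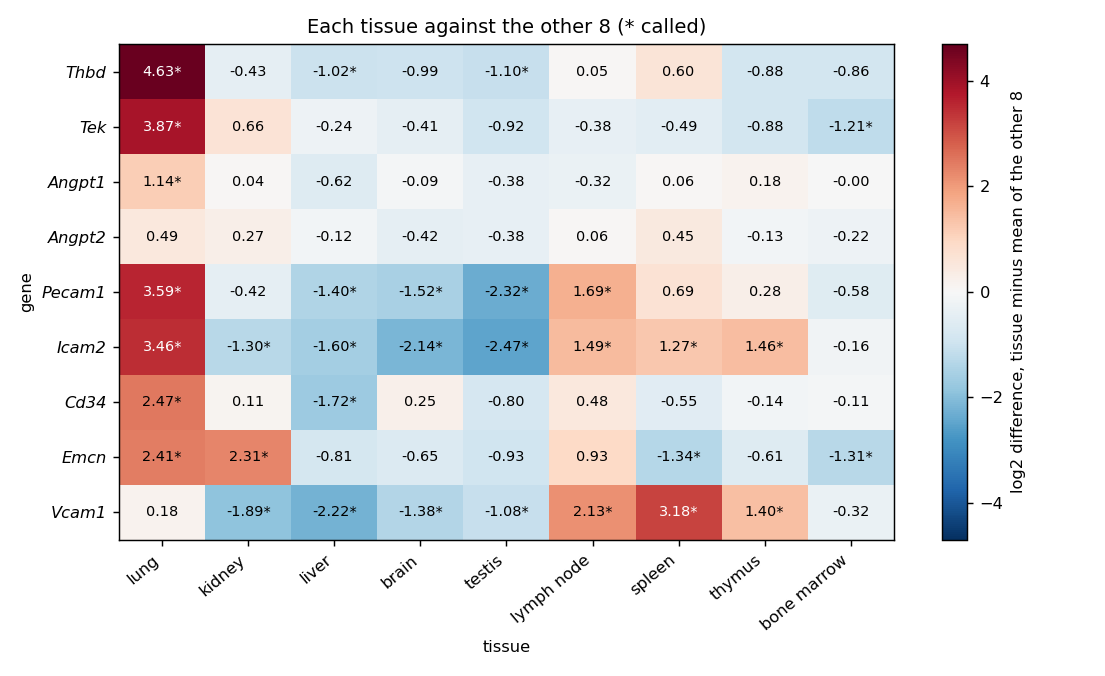
Log2 difference of each tissue from the mean of the other 8 for the 9 genes, with an asterisk where the gene was called in that tissue. Lung holds 7 of the 15 higher calls, liver and testis hold 9 of the 17 lower calls, and the higher calls of Vcam1 lie in spleen, lymph node and thymus.

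Tek, the angiopoietin receptor, had intensities of 2504, 2530.0 and 3165 in lung, against 407, 426 and 302 in kidney. In the other 7 tissues its arrays lay between 109.6 in bone marrow and 223 in liver. The lung arrays thus stood far above every other array, and the kidney arrays formed a separate second group. Liver, lymph node and brain were near the human median of 205.2, and all arrays of spleen, thymus, testis and bone marrow lay below it. Lung exceeded kidney, the next tissue, by 2.86 ± 0.13 on the log2 scale (SE, 7.26-fold, limma adjusted p = 8.07e-15), and kidney exceeded liver by 0.80 ± 0.13 (1.74-fold, adjusted p = 3.55e-05). From liver downwards no neighbouring pair of tissues was separated. With the lung arrays left out, kidney was called higher than the 7 tissues left to compare (1.16 ± 0.10, 2.23-fold, adjusted p = 2.05e-09). Bone marrow was called lower against the other 8 (fell by 1.21 ± 0.10, 2.31-fold, adjusted p = 4.31e-10), and this call did not pass with lung left out (-0.73).

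Angpt1, the activating ligand, was higher in lung than elsewhere but by a modest factor. Its intensities were 389, 466 and 307 in lung, against 112 to 238 on the arrays of the other 8 tissues. The lowest lung array was above the highest array of any other tissue, a thymus array, and all lung values lay below the 95th percentile of the human probe sets. Lung was higher by 1.14 ± 0.11 than the mean of the other 8 (2.20-fold, limma adjusted p = 3.78e-09) and by 0.85 ± 0.14 than thymus (1.81-fold, adjusted p = 3.29e-05). The call in lung was at the edge of the size threshold, at 0.996 without lung replicate 2 and at 0.87 with values raised to the human median. Liver was lowest, with 112, 136 and 140.3, all 3 below every array of the other tissues, and no 2 neighbours below lung in the order were separated.

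Angpt2, the context-dependent ligand, was the flattest of the genes. Its intensities were 384, 393 and 315 in lung, 375, 333 and 353 in spleen, and 339.9, 343 and 269 in kidney. The 3 tissues overlapped, and the other 6 ranged over their arrays from 181 in brain to 283 in lymph node. Its range of 0.81 on the log2 scale (1.76-fold) was the only one under the size threshold, although the F test gave an adjusted p of 1.84e-07. No neighbouring tissues were separated, but 6 tissues lay below lung and 6 below spleen in the pairwise limma tests. No tissue passed the call against the other 8, with differences between -0.42 in brain and 0.49 in lung.

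Within an array, the difference of Angpt2 from Angpt1 varied among tissues. Since the 2 genes are read by different probes, only its change between tissues can be read and not its sign. It was -0.08 ± 0.15 in lung on the log2 scale (SD, n = 3), against 0.95 ± 0.20 in liver, 0.85 ± 0.13 in spleen, 0.84 ± 0.12 in lymph node and 0.70 ± 0.14 in kidney. Testis had 0.50 ± 0.05, bone marrow 0.30 ± 0.18, thymus 0.23 ± 0.24 and brain 0.21 ± 0.36. The difference was smaller in lung than in liver, spleen, lymph node, kidney, testis and bone marrow, with no overlap of single arrays, while arrays of thymus and brain overlapped with those of lung. No test was run on this difference. All arrays of both genes lay inside the human range, under 590.1, with highest values of 466 for Angpt1 and 393 for Angpt2. Angpt1 was under the human median of 205.2 on all arrays of liver, lymph node, kidney and testis. The change of the difference between tissues may thus hold non-specific signal. It is a change of signals and cannot be read as a balance of ligand transcripts.

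Pecam1, the adhesion protein of endothelial cell contacts, had intensities of 1929, 1777 and 1871 in lung, against 674, 611 and 466 in lymph node, 369.8, 289 and 285 in spleen, and 323, 217 and 205 in thymus. Kidney arrays lay between 136 and 182, bone marrow arrays between 128 and 162, liver arrays between 79.4 and 90.8 and brain arrays between 68.2 and 87.8. Testis had 54.5, 46.5 and 46.0, below every array of every other tissue. Lung exceeded lymph node by 1.69 ± 0.16 (3.22-fold, limma adjusted p = 4.04e-09), and lymph node exceeded spleen by 0.89 ± 0.16 (1.85-fold, adjusted p = 0.000277). The order held 5 separated steps out of 8, more than that of any other member. Besides lung, lymph node was called higher than the other 8 tissues (1.69 ± 0.12, 3.22-fold), while testis (fell by 2.32 ± 0.12), brain (fell by 1.52 ± 0.12) and liver (fell by 1.40 ± 0.12) were called lower. The low tissues lie under the human median, and with values raised to it these 3 lower calls and the call in lymph node (0.97) did not pass.

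Icam2, a ligand of the leukocyte integrin LFA-1, had intensities of 5349, 4757 and 5954 in lung, against 1718, 1553 and 1499.6 in lymph node, 2021, 1396 and 1329 in thymus, and 1653, 1261 and 1272 in spleen. The 3 lymphoid organs overlapped with each other and lay below lung and above the rest. Bone marrow followed with 584, 527 and 614, and then kidney with 299.7, 294 and 262. Liver had 255, 204 and 255, brain 174, 167 and 167, and testis 137, 137 and 140.3. Lung exceeded lymph node by 1.75 ± 0.14 (3.36-fold, limma adjusted p = 7.17e-11), spleen exceeded bone marrow by 1.27 ± 0.14 (2.41-fold, adjusted p = 4.17e-08), and bone marrow exceeded kidney by 1.01 ± 0.14 (2.02-fold, adjusted p = 8.39e-07). Against the other 8 tissues Icam2 was called higher in lymph node (2.81-fold), thymus (2.74-fold) and spleen (2.41-fold) as well as in lung, and lower in testis (5.56-fold), brain (4.41-fold), liver (3.03-fold) and kidney (2.46-fold). Its 38.6-fold span was close to the 38.0-fold span of Pecam1.

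Vcam1, the ligand of the integrin VLA-4 on leukocytes, differed from the other genes in its order of tissues. The probe set used had intensities of 5627, 4790.4 and 4825 in spleen, against 2669, 3082 and 2287 in lymph node, 2092, 1468 and 1587 in thymus, and 776, 773 and 856 in lung. Bone marrow arrays were spread, with 703, 303 and 956, and testis arrays ran from 277 to 513. Brain lay between 269 and 333, kidney between 206 and 235, and liver between 174 and 188. All spleen arrays were above every other array and all liver arrays below them. Spleen stood above the mean of the other 8 by 3.18 ± 0.20 (9.04-fold, limma adjusted p = 1.69e-12) and exceeded lymph node by 0.93 ± 0.26 (1.91-fold, adjusted p = 0.0142). Lymph node (4.38-fold) and thymus (2.64-fold) were also called higher, and liver (4.66-fold), kidney (3.70-fold), brain (2.61-fold) and testis (2.11-fold) lower. The call in testis did not pass without testis replicate 1 (-0.88). Lung did not pass in either direction (0.18 ± 0.20, adjusted p = 0.473).

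The second Vcam1 probe set had 4711, 3862 and 4259 in spleen, against 2120.3, 2371 and 2043 in lymph node and 906, 848 and 746 in lung. Its tissue means correlated with those of the first with r = 0.991 over the 9 tissues. It spanned 14.7-fold, against 27.8-fold for the first, and its lowest tissue was kidney, with 302, 312 and 259. The first probe set had liver lowest, and kidney and liver were not separated there (adjusted p = 0.462). The order of spleen, lymph node, thymus and lung was the same on both.

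Cd34 had intensities of 1145, 885 and 1230.5 in lung, against 305, 359.8 and 288 in lymph node, 318, 206 and 312 in brain, and 275, 251 and 230.0 in kidney. Bone marrow, which holds the progenitor cells that carry Cd34, had 189.8, 189.8 and 294, and thymus had 276, 213 and 170.2. The bone marrow arrays overlapped with those of lymph node, brain, kidney and thymus. Liver was lowest with 82.7, 79.9 and 82.0, below every other array, and spleen and testis lay between 133 and 172. Lung exceeded lymph node by 1.77 ± 0.18 (3.41-fold, limma adjusted p = 1.10e-08), and testis exceeded liver by 0.82 ± 0.18 (1.76-fold, adjusted p = 0.000669). The 6 steps in between were not separated. Liver was called lower than the other 8 tissues (fell by 1.72 ± 0.14, 3.29-fold, adjusted p = 1.38e-10), and with values raised to the human median this difference was -0.47 and did not pass.

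Emcn was the gene with a pair of high tissues. Its intensities were 1178, 1209 and 1209.8 in lung, and 1168, 1289.6 and 949.7 in kidney. The 2 tissues overlapped and were not separated, with lung over kidney by 0.09 ± 0.17 (1.06-fold, limma adjusted p = 0.712). Lymph node followed with 461, 502 and 478, apart from both, and the arrays of the other 6 tissues lay between 108 and 238. Kidney was called higher than the other 8 tissues (2.31 ± 0.13, 4.97-fold, adjusted p = 5.48e-13), the only member called higher there, against 6.63% of all genes. Kidney exceeded lymph node by 1.23 ± 0.17 (2.35-fold, adjusted p = 1.76e-06), and lymph node exceeded thymus by 1.37 ± 0.17 (2.58-fold, adjusted p = 9.37e-07). Spleen, with 116, 121 and 120.3, was called lower (fell by 1.34 ± 0.13, 2.52-fold, adjusted p = 6.47e-09), as was bone marrow (fell by 1.31 ± 0.13, 2.49-fold), and neither passed with values raised to the human median. Spleen thus had the highest mean of Vcam1 and the lowest of Emcn. For Emcn it was not separated from bone marrow (limma adjusted p = 0.937) or from testis. The bone marrow arrays had 108, 126 and 129, and all these levels lay under the human median.

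Thbd had intensities of 5625, 4464 and 6690 in lung, against 482, 489 and 409.6 in spleen, 321, 355 and 307 in lymph node, and 229, 265 and 237 in kidney. The arrays of the other 5 tissues lay between 138 and 201, under the human median. Lung exceeded spleen by 3.59 ± 0.14 (12.0-fold, limma adjusted p = 2.07e-16), a gap larger than that of 98.8% of mouse genes. Spleen exceeded lymph node by 0.49 ± 0.14 (1.40-fold, adjusted p = 0.0137), lymph node exceeded kidney by 0.43 ± 0.14 (1.35-fold, adjusted p = 0.0117), and kidney exceeded bone marrow by 0.38 ± 0.14 (1.30-fold, adjusted p = 0.0256). Bone marrow, thymus, brain, liver and testis were not separated from each other. With lung left out, spleen was called higher than the other 7 tissues (1.19 ± 0.09, 2.29-fold, adjusted p = 4.66e-10). The lower calls in testis (fell by 1.10 ± 0.10) and liver (fell by 1.02 ± 0.10) did not pass with lung left out, at -0.53 in testis and -0.44 in liver. Leaving out a single array also ended them, at -0.99 in testis without testis replicate 1 and at -0.93 in liver without liver replicate 2; the liver call also fell just short without lung replicate 3 or testis replicate 3.

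Read by tissue, 7 of the 9 genes were called higher in lung, where 8.90% of all genes were. In 6 of them all 3 lung arrays lay above all other arrays, which held for 8.03% of all genes. In lymph node 3 genes were called higher (Pecam1, Icam2 and Vcam1, against 11% of all genes), in spleen 2 (Icam2 and Vcam1, 9.95%) and in thymus the same 2 (5.58%). Emcn was the 1 gene called lower in spleen (1.05%). Liver had 5 lower calls (Thbd, Pecam1, Icam2, Vcam1 and Cd34, 9.25%), testis 4 (Thbd, Pecam1, Icam2 and Vcam1, 13.6%; 2 without testis replicate 1), brain 3 (Pecam1, Icam2 and Vcam1, 10.5%), kidney 2 (Icam2 and Vcam1, 6.11%) and bone marrow 2 (Tek and Emcn, 4.01%). No member was called higher in liver (4.71% of all genes), testis (3.14%), brain (4.71%) or bone marrow (5.93%), and none lower in lung (1.05%), lymph node (0.698%) or thymus (1.40%).

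By single arrays, all 3 arrays of a tissue lay above all others for Vcam1 in spleen (2.09% of all genes). They lay below all others for Angpt1, Vcam1 and Cd34 in liver (2.79%) and for Pecam1 and Icam2 in testis (5.76%). For Angpt1 the highest liver array (140.3) nearly met the lowest testis array (140.9), and the 2 tissues were not separated. For Vcam1 it held on the probe set used, while the second probe set had kidney lowest. Over the 9 genes, 23 of 72 steps between neighbouring tissues were separated in the pairwise limma tests, against 12.3% of the steps of all genes. The 36 pairs called between 14.8% and 55.5% of all genes at an adjusted p under 0.05.

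The mean of lymph node, spleen, thymus and bone marrow was also set against the mean of the 5 other tissues. Vcam1 was higher in the lymphoid and blood-forming tissues by 2.56 ± 0.12 (5.88-fold, limma adjusted p = 4.88e-15) and Icam2 by 1.62 ± 0.06 (3.08-fold, adjusted p = 8.73e-17), 2 genes called higher against 11.2% of all genes. Tek was lower (fell by 1.18 ± 0.06, 2.27-fold, adjusted p = 3.23e-14), 1 gene against 2.62%, and its high lung level is part of that mean. With values raised to the human median the Tek difference was -0.99 and did not pass. Pecam1 (0.83 ± 0.08) and Emcn (-0.93 ± 0.08) missed the size threshold. The 2 higher calls describe the mean of the lymphoid and blood-forming tissues and not each of them. Against the mean of all other tissues, bone marrow had -0.32 for Vcam1 and -0.16 for Icam2, neither called. For Icam2, lung exceeded lymph node, the highest of the lymphoid and blood-forming tissues, by 3.36-fold.

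The lung arrays carried much of the variation. With them left out and the fit repeated on 24 arrays, 7 of the 9 genes were called among the 8 remaining tissues (all but Angpt1 and Angpt2), against 46.6% of all genes. The median member then spanned 3.88-fold, against 1.88-fold for the median mouse gene. Thbd spanned 34.2-fold with lung and 2.85-fold without, Tek 22.9-fold and 3.15-fold, and Cd34 13.2-fold and 3.88-fold. Emcn kept 9.47-fold of 10.1-fold, Pecam1 11.8-fold of 38.0-fold, Icam2 11.5-fold of 38.6-fold, and Vcam1, whose extremes lie elsewhere, kept its 27.8-fold span. Thbd, Tek, Cd34 and Angpt1 were thus set mainly by lung, and Pecam1, Icam2 and Emcn also differed widely among the other tissues. Vcam1 had its maximum in spleen, and Angpt2 had the smallest span over the 9 tissues (1.76-fold). This grouping is a description made after the values were seen and was not tested.

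**Figure D3:**
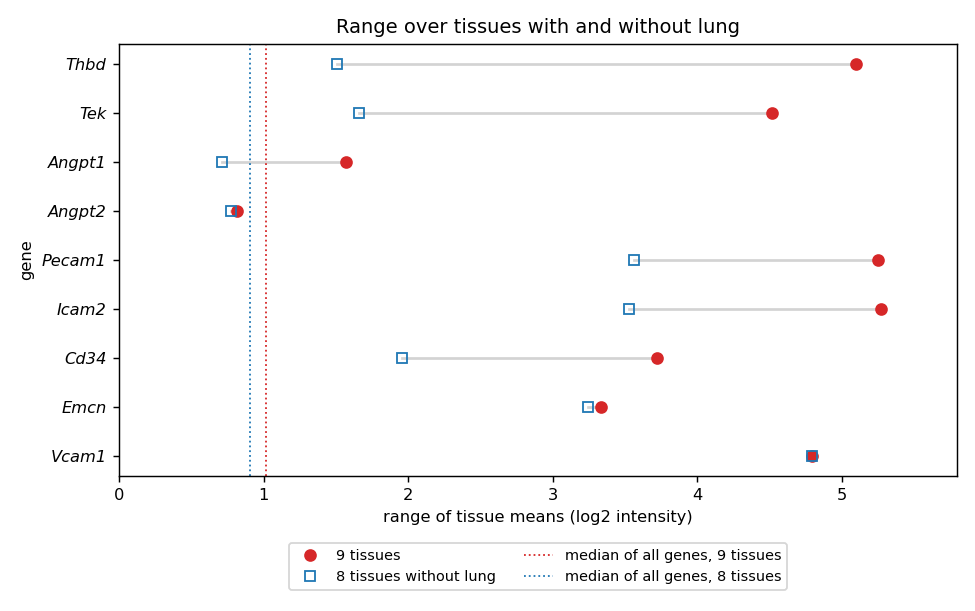
Range of tissue means of each gene on the log2 scale with all 9 tissues and with the lung arrays left out. The range of Thbd was 1.51 without lung and 5.10 with it, that of Tek 1.66 and 4.52, while Vcam1 kept 4.80 and Emcn 3.24 of 3.33.

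With lung left out, spleen had 4 genes called higher (Thbd, Pecam1, Icam2 and Vcam1, against 10.6% of all genes), lymph node 4 (Pecam1, Icam2, Vcam1 and Emcn, 11.3%), kidney 2 (Tek and Emcn, 7.16%) and thymus 2 (Icam2 and Vcam1, 6.11%). Emcn was higher in lymph node by 1.25 ± 0.14 (2.37-fold, limma adjusted p = 1.11e-07) and Pecam1 in spleen by 1.16 ± 0.13 (2.23-fold, adjusted p = 1.40e-07). Lower calls were 3 in liver (Icam2, Vcam1 and Cd34, 8.55%), 3 in testis (Pecam1, Icam2 and Vcam1, 13.1%), 3 in brain (the same 3 genes, 11%), 1 in kidney (Vcam1, 5.76%), 1 in bone marrow (Emcn, 3.84%) and 1 in spleen (Emcn, 1.05%). Pecam1 in liver (-0.96) and Icam2 in kidney (-0.88) no longer passed.

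Over the 9 tissue means of log2 intensity, the 36 pairs of members had a median Pearson r of 0.707, from -0.13 to 0.952. All points share their tissues and the lung value weighs on most pairs. Without lung the median was 0.372, from -0.31 to 0.927, and 5 pairs were below 0. Pecam1 and Icam2 had r = 0.952 with lung and 0.927 without it. Tek and Emcn had 0.791 and 0.815, and Icam2 and Vcam1 0.707 and 0.890. Thbd and Tek, at 0.921 with lung, had 0.263 without it. Tek and Vcam1 had -0.07 with lung and -0.31 without it.

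**Figure D4:**
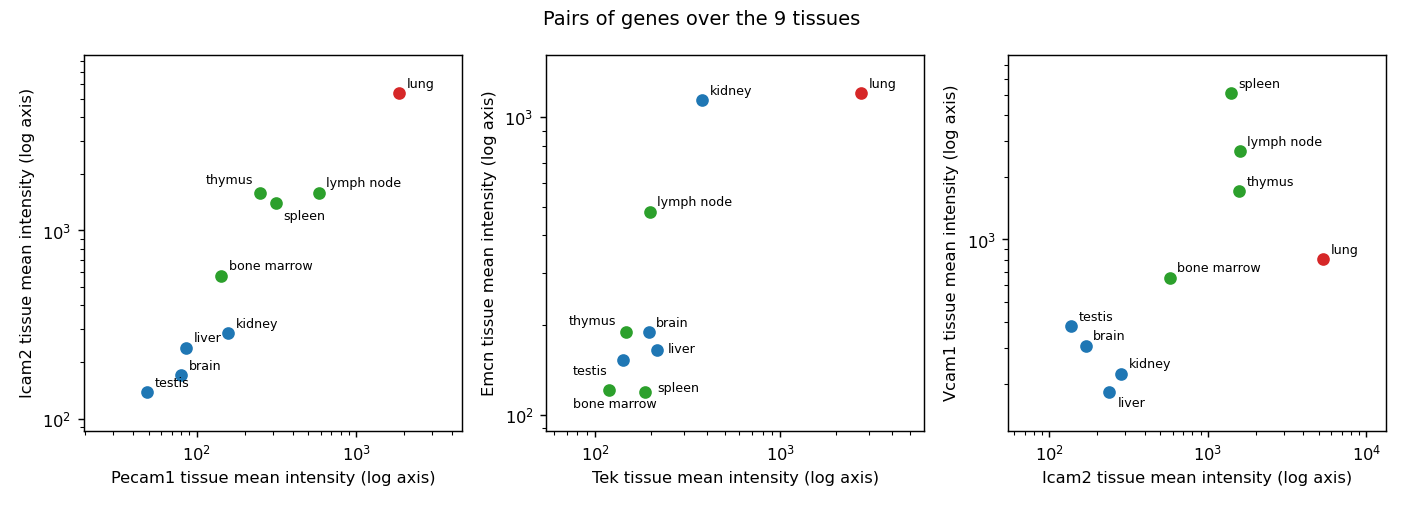
Tissue means (log axes, deposited intensity) of Icam2 against Pecam1, of Emcn against Tek and of Vcam1 against Icam2, with lung red, other solid organs blue and lymphoid and blood-forming tissues green. Pecam1 and Icam2 lie along a line with r = 0.952, kidney lies beside lung for Emcn and not for Tek, and lung lies below spleen, lymph node and thymus for Vcam1.

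The mouse genes most like each member over the 9 tissue means were named by the highest Pearson r, a description over 9 points that all include lung. Thbd was closest to Acvrl1 (0.977), Vegfd (0.966) and Prdm1 (0.951), and Tek to Vegfd (0.959), Fzd4 (0.954) and Itga3 (0.953). Acvrl1 encodes an endothelial receptor of the TGF-beta family and Vegfd a ligand of VEGF receptors. Angpt1 was closest to B4galt4 (0.899), Acvrl1 (0.876) and Pdgfb (0.875), and Angpt2 to Ccr1l1 (0.892), Itgb1 (0.886) and Bgn (0.874). Pecam1 and Icam2 each had Icam1 first (0.975 and 0.965) and each other second, followed by Ext2 (0.933) for Pecam1 and Ifngr1 (0.917) for Icam2. Cd34 was closest to B4galt4 (0.938), Acvrl1 (0.878) and Angpt1 (0.875), and Emcn to Fzd4 (0.879), Cldn7 (0.835) and Vegfa (0.811). The neighbours of Vcam1 all peak in lymphoid organs: the lymphocyte adhesion gene Cd2 (0.951), Galnt6 (0.944) and Sipa1 (0.936). Of the neighbours of the other members, Ifngr1 peaks in thymus and the rest in lung.

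Of 24 listed vascular growth factor and receptor genes, 15 were measured and 10 were called in the F test, against 50.6% of all genes. In lung 8 of the 15 were called higher, against 8.90% of all genes, and 0 lower, against 1.05%. Acvrl1 was 9.81-fold higher, the endothelial growth factor gene Vegfa 6.94-fold, the mesenchymal receptor gene Pdgfra 6.48-fold, and Vegfd 3.57-fold. Vegfa was also called higher in kidney, by 1.45 ± 0.15 (2.72-fold, limma adjusted p = 2.59e-08), with means of 912 ± 193 in kidney and 2102 ± 510 in lung (SD, n = 3). Tgfb1 was called higher in spleen (4.55-fold), bone marrow (4.15-fold), thymus (2.17-fold) and lymph node (2.02-fold), with overlapping arrays in spleen and bone marrow. The list's median difference in lung was 1.13 on the log2 scale, against -0.03 for all genes, and between -0.37 and 0.15 in the other 8 tissues.

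Of 23 listed adhesion genes of vessels and leukocytes, 8 were measured and 4 were called in the F test (Icam1, Selplg, Glycam1 and Cd44), a share near the 50.6% of all genes. Icam1, an inducible relative of Icam2, averaged 2730 ± 397 in lung, 1086 ± 63.5 in lymph node, 720.5 ± 12.4 in spleen and 530 ± 57.6 in thymus, and lay at or under 189 in the other 5 tissues. It was called higher in lung (10.3-fold), lymph node (3.66-fold) and spleen (2.31-fold). Glycam1, a sialomucin of high endothelial venules, was 16.2-fold higher in lymph node. The endothelial selectin genes Sele and Selp did not vary by the size threshold, with ranges of 0.42 and 0.39. No anticoagulant or lymphatic endothelial gene of those listed was measured.

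Of 7 listed integrin subunit genes whose products bind Vcam1 or Icam2, 5 were measured and 4 were called in the F test, against 50.6% of all genes. Itgb2 and Itgal form LFA-1, which binds Icam2. Itgb2 was 7.06-fold higher in bone marrow, 6.39-fold in lymph node, 5.85-fold in spleen and 4.80-fold in thymus, and Itgal was 3.93-fold higher in thymus and 2.58-fold in lymph node. Itgb7, a partner of the VLA-4 alpha chain, was 2.61-fold higher in lymph node and 2.08-fold in spleen, and Itgb1 was 4.60-fold higher in lung. Itga4, the VLA-4 alpha chain, ranged over 0.66 and was not called. Lymph node, spleen and thymus thus had higher calls of Icam2, Vcam1 and Itgb2 alike, while bone marrow had that of Itgb2 without those of Icam2 (-0.16) and Vcam1 (-0.32), and lung that of Icam2 without those of Itgb2 (0.28) and Itgal (-0.45).

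Genes that mark other cells moved in the same tissues. In lung, both measured epithelial markers (Cxcl15 21.0-fold and Sftpd 20.8-fold) and 3 of 6 stromal markers (Bgn, Pdgfra and Dcn) were called higher. So were the only measured pericyte marker, Pdgfrb, and 1 of 2 progenitor markers (Kit, 2.57-fold, and not Flt3). The summed level of the stromal markers ran from 13994 to 15966 on lung arrays, against 941 to 12317 on arrays of the other tissues. Of 3 other endothelial markers measured, Acvrl1 was called higher and Sele and Selp were not, with a sum of 2299 to 2775 in lung, against 797 to 988 elsewhere. No T cell, macrophage, neutrophil or platelet marker was called higher there. The part of these cells in the lung levels was not tested.

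In spleen, where Vcam1 peaked, the macrophage markers Mrc1 (4.72-fold) and Clec7a (2.05-fold), 2 of 4 measured, were called higher. So were both T cell markers, 3 of 4 B cell markers, 1 of 3 platelet markers (Pf4, 6.01-fold) and 3 of 6 stromal markers. The summed macrophage markers ran from 2331 to 2619 in spleen, against 1840 to 2749 in lymph node, 961 to 1311 in thymus and 3225 to 5450 in bone marrow, where Vcam1 was lower. The markers went different ways in bone marrow, where Clec7a (mean 2862) and Ccr2 (1360) were called higher and Mrc1 lower. Mrc1 averaged 1361 in spleen, 894 in lymph node, 384 in thymus and 183 in bone marrow. Its order differed from that of Vcam1, since Mrc1 averaged 592 in lung and 493 in liver. Both lay above thymus, while Vcam1 was lower in lung than in thymus and lowest in liver. In lymph node 3 of 4 macrophage, both T cell, 3 of 4 B cell, 4 of 6 stromal and 1 of 5 high endothelial venule markers were called higher. In thymus, no macrophage, T cell or B cell marker passed, and Lum (2.02-fold) was the stromal marker that did. The 2 measured T cell markers, Il7r (mean 1008) and Ccr7 (761), had a median difference of 0.95 there, just under the size threshold of 1. In kidney, where Emcn was high, no marker of endothelium, stroma or blood cells was called higher. Only 3 of the 14 listed other endothelial markers were measured, and Sele and Selp among them did not vary by the size threshold in any tissue. The lack of a call there thus does not measure the endothelial content of kidney. No listed marker was at 0 on any array, and their part in the member levels was not tested.

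Human probe sets of the same genes give a comparison on the same arrays. Of the 9 members 7 had at least 1, and 8 such probe sets were present. They spanned 1.25- to 1.73-fold among tissues, none of them by 1 or more on the log2 scale, a size that 7.51% of all human probe sets reached. The human TEK probe set had 278, 277 and 256 in lung, against 407, 323 and 304 in liver, its highest tissue. The human ICAM2 probe set had 345, 395 and 271 in lung, against 275, 318 and 317 in testis. For these 7 genes, Angpt2 with its small span on the mouse probe set apart, the peaks on mouse probe sets were thus not of that size on the human ones.

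**Figure D5:**
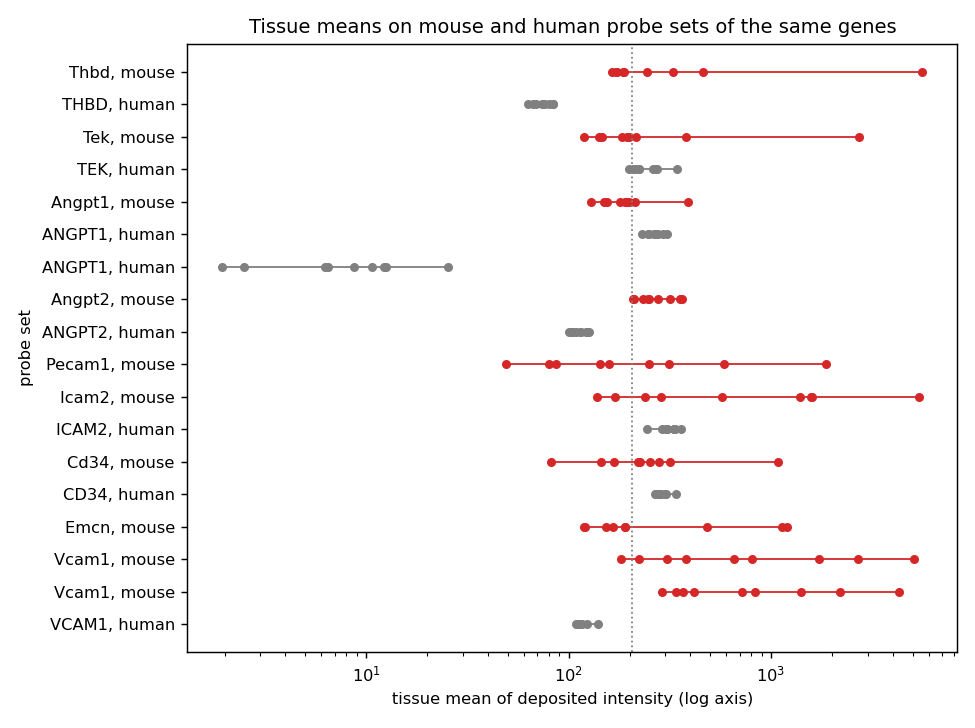
Tissue means of deposited intensity (log axis) on the mouse and human probe sets of the 9 genes, with the human median of 205.2 as a dotted line. The 10 mouse probe sets spread over 1.76-fold (Angpt2) to 38.6-fold (Icam2) and the 8 human probe sets over at most 1.73-fold, with none used here for human PECAM1 and EMCN; a human ANGPT1 probe set lies near 0 in all tissues, with array values up to 64.4, and its range was taken above the floor of 16.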

How the data were processed

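The 9 genes and the gene lists were chosen with earlier results of these data known. The authors deposited linear intensities, a value for each probe set on each array, kept here as deposited. How they summarised, corrected and scaled them was not given in the sources used here. Names came from the platform annotation and RefSeq gene identifiers (GRCm38.p6), and 702 mouse probe sets gave 573 genes. For a gene with several, the probe set with the highest mean was used. Intensities under 16 (2 values) were raised to 16 and log2 taken.

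limma 3.58.1 in R 4.3.3 was fitted over all 27 arrays with a coefficient per tissue (lmFit, eBayes), followed by the F test, the contrast of each tissue with the mean of the other 8, that of lymph node, spleen, thymus and bone marrow with the rest, and the 36 tissue pairs. Benjamini-Hochberg adjustment ran over all 573 genes in each contrast. A call needed an adjusted p under 0.05 and a difference, or range, of at least 1. Neighbours in an order were separated at an adjusted p under 0.05 alone. Folds are powers of 2 of log2 differences. The number of arrays limits the precision. On simulated data with 50 genes per size, the liver contrast called 100% of genes changed by 1.5, 2 or 3, 0 changed by 0.5 and 0 of 373 unchanged genes. These sizes lie clearly above or below the threshold of 1, so this checks the working of the fit and not its precision.

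All 9 members are named, with the 3 genes of highest r to each, up to 5 called genes per list and up to 3 called markers per tissue; Sele, Selp and Itga4, not called, were named after their values were seen. Alternatives were quantile normalization, median centring, the 191 dimmest genes left out, a floor of 64, an offset of 16, a floor at the human median, averaged probe sets per gene, trend and robust eBayes, a replicate block, a median in place of the mean of the other tissues, lung left out, and each array left out. Same-numbered arrays had a median correlation of deviations of 0.009, from -0.37 to 0.55 (24 of 108 pairs over 0.1). The numbers were not used as pairs in the main fit, and these values cannot show whether arrays shared an animal.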

Additional observations from a re-analysis of the deposited data

How the results depend on the processing

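No value of a member against the other tissues reversed. Leaving out each of the 27 arrays kept 2421 of 2430 such values on their side of the threshold, and 11 other alternatives kept 894 of 933. With an array left out, the counts ran from 3 to 4 lower in brain, 4 to 5 lower in liver, 6 to 7 higher in lung, 2 to 4 lower in testis and 21 to 27 separated steps, and the others did not change. Without testis replicate 1, Thbd (-0.99) and Vcam1 (-0.88) in testis did not pass, which leaves 2. The title numbers as a replicate block changed none of 90 calls (8 genes in the F test, 23 separated steps). Quantile normalization gave 1 higher in spleen, 2 lower in testis and 2 lower in the lymphoid tissues, and median centring 2 lower in testis. Leaving out the 191 dimmest genes, which kept 6 members, gave 5 in the F test, 3 lower in liver, 4 higher in lung and 15 separated steps. A floor at the human median gave 0 lower in bone marrow, spleen and the lymphoid tissues, and 2 in liver and in testis. The median in place of the mean of the other 8 tissues gave 0 lower in bone marrow and in spleen, 4 higher in spleen and 2 lower in testis. Leaving out lung gave 1 lower in bone marrow and in kidney, 2 higher in kidney, 3 lower in liver and 4 higher in spleen. The cause of each was not tested beyond the construction of the alternative. Over all genes, quantile normalization gave 42 higher and 45 lower in brain (27 and 60 as deposited), 29 and 55 in testis (18 and 78), and 46 and 9 in lymph node (63 and 4). Counts of genes lower in lymph node ran from 1 to 9 over the alternatives. Leaving out the 191 dimmest genes gave 16 higher in brain, 3 lower in lung and 5 lower in thymus; the human floor 12 lower in bone marrow and 2 in spleen; the median of the others 14 lower in bone marrow, 3 in lung, 1 in spleen and 2 in thymus. Signal over background is the limit for low levels, since most member values outside their high tissues lie within the range of the human probe sets.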
